A study of Mus musculus with 12 samples.

Results

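Connexins and cadherins join the oocyte to the somatic cells of its follicle. The 6 genes described here were *Gja1*, *Gja4*, *Gjc1*, *Cdh1*, *Cdh2* and *Ctnna1*, taken by symbol from the 55401 genes of the deposited count table, and each symbol matched 1 gene. Connexins assemble into gap junction channels that pass small molecules and ions between neighbouring cells. *Gja4* encodes connexin 37, the connexin that the growing mouse oocyte contributes to its contacts with granulosa cells. *Gja1* encodes connexin 43, which couples granulosa cells to each other, and *Gjc1* encodes connexin 45. *Cdh1* and *Cdh2* encode E-cadherin and N-cadherin, calcium-dependent adhesion proteins of adherens junctions, and *Ctnna1* encodes alpha-E-catenin, which links the cadherin complex to actin.

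RNA was sequenced from oocytes cut by laser from stained sections of fixed, paraffin-embedded mouse ovaries and pooled by follicle stage. The ovaries came from C57Bl/6j x CBA/J F1 females of 7 to 8 days and, by the study's methods, were cultured for 5 days with DMSO or with dorsomorphin (DM), an inhibitor of the kinase AMPK. The 4 groups were oocytes of primordial follicles, control or DM, and oocytes of primary follicles, control or DM, with 3 libraries each. The labels call the controls sham and describe the samples as in vivo. The lead DM concentration was 10 µM, and the methods do not state separately which one the sequenced ovaries received. Each library is a pool amplified before sequencing, and nothing in it separates the oocyte from cell contacts or neighbouring cytoplasm taken with the cut. A lower value from fewer cells of a type cannot be told apart from one with less RNA per cell.

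The libraries held 14034586 to 42639326 counts. Genes with at least 10 counts numbered 9333 in primordial control 1 but 2913 in primary control 3, 3263 to 3890 in the 3 primary DM libraries and 3939 in primordial DM 3. These 5 libraries stood apart from the other 7, which had 5432 or more. Markers of other cells were present throughout. Summed CPM (counts scaled to the library total) of 13 stroma, theca and vessel markers ranged from 2164 to 12533, those of 13 granulosa markers from 265 to 14571, and those of 15 oocyte markers from 13.9 to 1464. The highest markers were *Ddx4*, *Kit* and *Zp1* of the oocyte, *Foxl2*, *Gatm* and *Krt19* of granulosa cells, and the collagens *Col1a1*, *Col1a2* and *Col3a1*. The granulosa markers *Fshr* and *Cyp19a1* had no count in any library. The part of these cells in the values below was not tested.

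The 6 genes differed widely in level. On the scale of CPM per kilobase of exon, which allows genes to be compared, the median level over the 12 libraries was 72.4 for *Ctnna1*, 32.7 for *Gja1*, 2.78 for *Cdh2*, 0.0678 for *Gja4*, 0.0349 for *Gjc1* and 0 for *Cdh1*. *Gja1* exceeded *Cdh2* in 12 of 12 libraries, and *Gjc1* exceeded *Cdh1* in 12 of 12. In primordial DM 1 and 3, primary control 2 and the primary DM libraries, however, *Gjc1* had only 1 to 4 counts against 0. A count of 0 allows up to 3 counts, so the order of these 2 genes is not settled there. The other neighbours in this order did not separate: *Ctnna1* was above *Gja1* in 8 libraries, *Cdh2* above *Gja4* in 5, and *Gja4* above *Gjc1* in 8. Ranked by the mean, *Gja4* came before *Cdh2*.

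**Figure D1:**
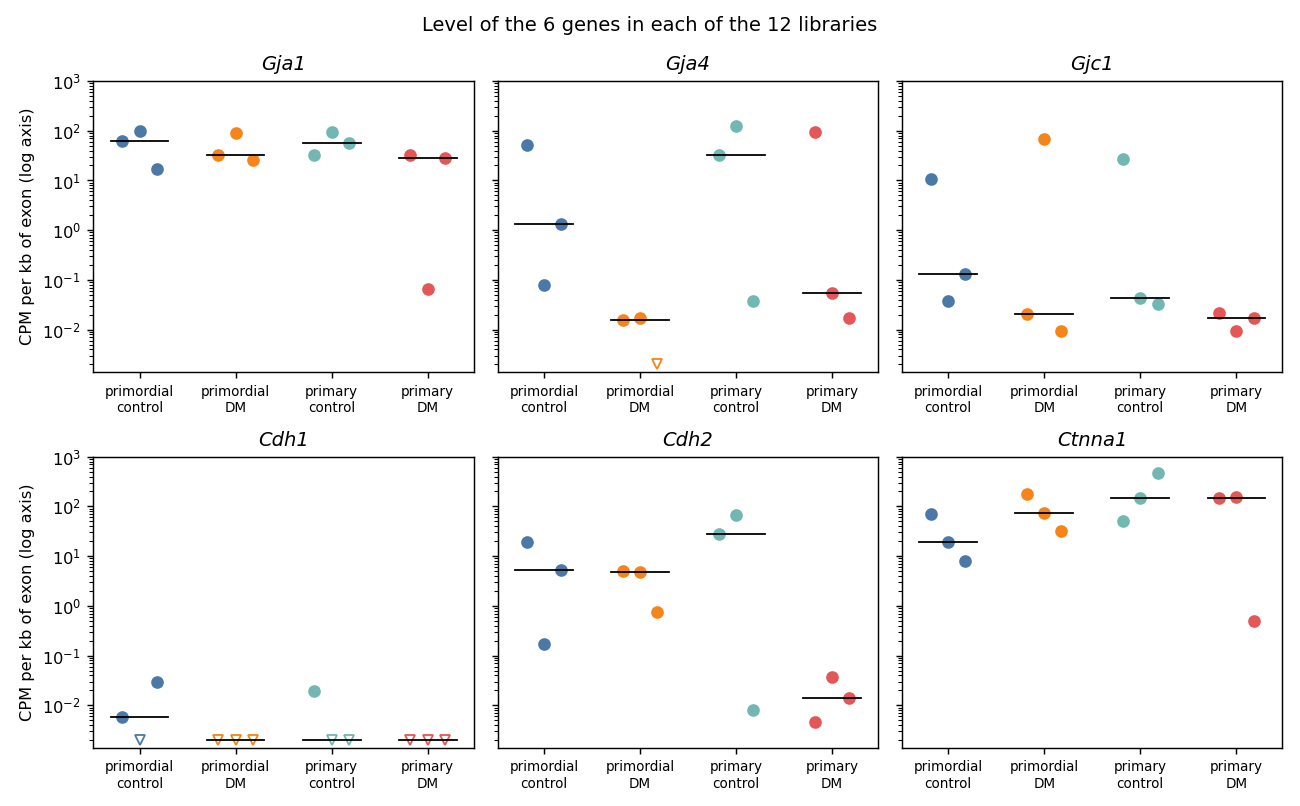
Level of each gene in CPM per kilobase of exon (log axis) in the 12 libraries by group; circles are libraries, lines are group medians and open triangles at the lower edge are counts of 0. *Gja1* and *Ctnna1* had at least 10 counts in all 12 libraries, whereas *Gja4* and *Gjc1* were split between high and near-zero libraries within groups.

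*Gja1* (GRCm38 chromosome 10, 56377330 to 56402513, plus strand) was the connexin with at least 10 counts in every library. Its level was 630, 1026 and 176 CPM in primordial control 1 to 3 and 341, 929 and 261 CPM in primordial DM 1 to 3. In primary follicles it was 331, 946 and 594 CPM in the controls and 329, 0.680 and 296 CPM under DM. One library, primary DM 2, was therefore far below the other 11, with 29 counts at the greatest depth of the series. Group means were 611 ± 426 CPM and 510 ± 365 CPM in primordial control and DM, and 624 ± 308 CPM and 209 ± 181 CPM in primary control and DM (SD, n = 3 each).

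*Gja4* (chromosome 4, 127311421 to 127314039, minus strand) was present or nearly absent by library. It had 3354, 5 and 34 counts in primordial controls and 1, 1 and 0 counts in primordial DM. The primary controls had 1834, 2937 and 2 counts, and the primary DM libraries had 4432, 4 and 1 counts. At least 10 counts were reached in 5 of 12 libraries, of 3 different groups. Low and high libraries thus occurred side by side in both primary groups.

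*Gjc1* (chromosome 11, 102799579 to 102819700, minus strand) was the sparsest gap junction gene of the 3. Its counts were 2038, 7 and 10 in primordial control, 4, 12128 and 1 in primordial DM, 4629, 3 and 5 in primary control, and 3, 2 and 3 in primary DM. A single library held nearly all counts in each of the first 3 groups, and the primary DM group had no such library.

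*Cdh1* (chromosome 8, 106603351 to 106670246, plus strand) was not detectable at this depth as more than stray reads. It had 6 counts in all, 1 and 2 in primordial controls 1 and 3 and 3 in primary control 1, and 0 in the other 9 libraries. A count of 0 allows up to 3 counts, or 0.0704 to 0.214 CPM by library, a limit that covers counting error only. No fold change is given for it, since no group rose above that limit.

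*Cdh2* (chromosome 18, 16588877 to 16809246, minus strand) was the cadherin with reads. It had 157, 1.40 and 43.3 CPM in primordial control, 40.9, 38.7 and 6.13 CPM in primordial DM, and 222, 554 and 0.0643 CPM in primary control. Under DM the primary libraries had 0.0364, 0.305 and 0.114 CPM, from 1, 13 and 4 counts. All 3 were low, but primary control 3, with 2 counts, lay among them.

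*Ctnna1* (chromosome 18, 35118859 to 35254779, plus strand) was the highest of the genes. It had 447, 126 and 52.0 CPM in primordial control, 1124, 482 and 204 CPM in primordial DM, 322, 949 and 2998 CPM in primary control, and 956, 976 and 3.25 CPM in primary DM. Primary DM 3 stood below the other 11 libraries. An exon stretch of 95 bases is shared with *Lrrtm2* on the other strand, and whether reads were counted by strand is not given in the sources used here.

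The genes differed in how far their counts were concentrated in few libraries, from *Gja1*, the most even by CPM, to *Gjc1*, the least even. The highest library held 17.5% of the summed CPM of *Gja1*, 34.7% of *Ctnna1*, 40.6% of *Gja4*, 52.1% of *Cdh2* and 64.5% of *Gjc1*. Over the 12938 genes with at least 10 counts in some library, the median share was 64.0%, and the median number of libraries with at least 10 counts was 4. Genes found in all 12 libraries, 8.37% of these, had a median share of 32.6% and a lower quartile of 24.4%. *Gja1* lay under that quartile and *Ctnna1* near the median. With TMM-normalized values the share of *Gja1* became 34.5% and that of *Ctnna1* 59.2%, so the evenness of *Gja1* depended on the scaling.

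**Figure D2:**
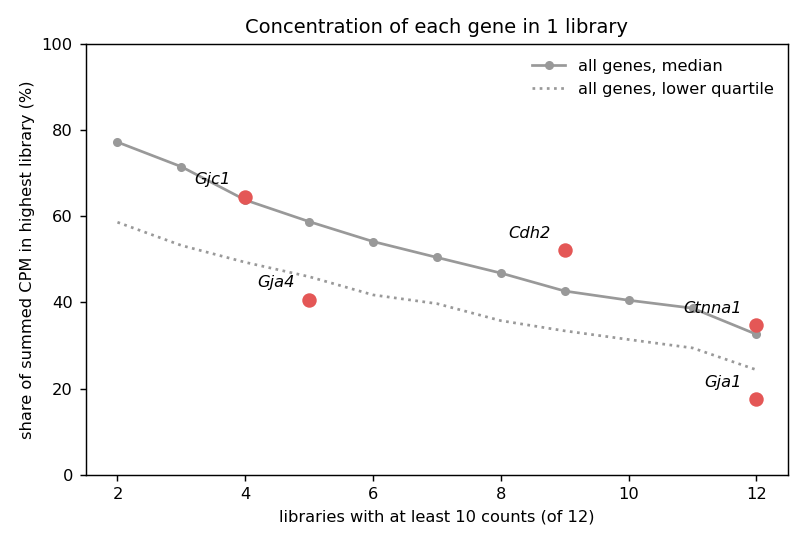
Share of each gene's summed CPM held by its highest library (vertical axis, %) against the number of libraries with at least 10 counts (horizontal axis); the grey line is the median and the dotted line the lower quartile over all genes. *Gja1* (17.5%) and *Gja4* (40.6%) lie below the dotted line, *Gjc1* (64.5%) and *Ctnna1* (34.7%) near the median, and *Cdh2* (52.1%) above it.

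The first question was whether DM changed these genes in oocytes of primordial follicles. None of the 4 genes that passed the filter on low counts was called by edgeR's quasi-likelihood test at a Benjamini-Hochberg adjusted p under 0.05, where 0.0149% of 6699 genes were, and none had an unadjusted p under 0.05, where 7.33% of genes did. The log2 fold change of *Gja1* was 0.19 (SE 1.68, adjusted p = 0.986 by edgeR), with overlapping groups. For *Ctnna1* it was 2.26 (SE 1.99, adjusted p = 0.795 by edgeR), and the lowest DM library lay above 2 of the 3 controls.

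*Gjc1* gave 3.84 (SE 3.27, adjusted p = 0.781 by edgeR) on the strength of primordial DM 2, and −6.89 without that library. *Cdh2* gave −0.36 (SE 2.99, adjusted p = 0.985 by edgeR). The largest difference was that of *Gja4*, whose DM libraries were all below the controls. The group totals of 3393 and 2 counts gave a control to DM ratio of 1774 at equal depth (95% counting interval 491 to 14655), which became 35.2 without primordial control 1. A counting interval, here and below, covers counting error only and leaves out the spread between libraries. *Gja4* did not pass the filter, and without it edgeR gave a log2 fold change of −9.49 (SE 4.92, adjusted p = 0.468).

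*Gja4* was the only one of 5 detected genes with groups that did not overlap, beside 10.7% of 11750 genes overall and 9.19% that were lower under DM. The nearest libraries, primordial control 2 and primordial DM 2, had 5 counts and 1 count, so the lack of overlap rested on few counts. DESeq2 called *Gja4* (log2 fold change −8.21, adjusted p = 0.0124), as it did 4.04% of 16334 genes. Over the alternatives tried, its adjusted p ran from 0.0124 to 0.985.

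Some markers of oocytes and of granulosa cells were also lower in the primordial DM libraries than in every control. Of 15 oocyte markers, 4 were lower under DM without overlap (*Nobox*, *Sohlh1*, *Zp2* and *Nlrp5*). So were 2 of 11 detected granulosa markers (*Foxl2* and *Nr5a2*), both of which DESeq2 called. Over all genes 9.19% were lower without overlap, and DESeq2 called 4.04%. *Nobox* and *Sohlh1* had at most 36 and 23 counts in any library. Of 8 detected stroma, theca and vessel markers 1, *Star*, was higher without overlap, beside 10.7% of all genes in either direction. *Star* had at most 11 counts in any library. *Foxl2*, a transcription factor of granulosa cells, had 1075, 1053 and 278 CPM in primordial control and 2.54, 18.8 and 2.90 CPM in primordial DM (log2 fold change −6.07, SE 2.54, adjusted p = 0.644 by edgeR). *Krt19*, the other granulosa marker with an unadjusted p under 0.05 by edgeR, had 205, 0.378 and 2.98 CPM in control and 1459, 1.81 and 708 CPM under DM. Fitted values under DM were higher for 3 and lower for 8 oocyte markers tested. They were higher for 3 and lower for 5 granulosa markers, and higher for all 6 stroma, theca and vessel markers. Of the last, DESeq2 called 1, *Dcn*. The summed levels overlapped between control and DM, at 34.8 to 1281 and 17.4 to 1075 CPM for oocyte markers, 1000 to 2504 and 265 to 2864 CPM for granulosa markers, and 2545 to 3479 and 2164 to 4086 CPM for stroma, theca and vessel markers. The part of these markers' cells in the *Gja4* difference was not tested.

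In oocytes of primary follicles, 3 of the genes passed the filter and none was called by edgeR, as for 0.0% of 4181 genes. None reached an unadjusted p under 0.05, which 12.2% of genes did, and DESeq2, which called 4.07% of 14026 genes, called none. *Gja1* differed by −1.39 (SE 3.05, adjusted p = 0.821 by edgeR), *Gja4* by 0.55 (SE 2.90, adjusted p = 0.925) and *Ctnna1* by −1.39 (SE 2.67, adjusted p = 0.794). Each SE exceeded its difference. Without primary control 3 the values became 0.26 for *Gja1* and 2.29 for *Ctnna1*, and without primary DM 1 that of *Gja4* became −7.82.

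*Cdh2* and *Gjc1* were the low genes of the primary DM group. Without the filter, *Cdh2* differed by −8.15 (SE 4.19, adjusted p = 0.347 by edgeR) and stayed between −9.64 and −7.26 as each library was left out. Its groups overlapped, since primary control 3 had 2 counts. That library, with 2913 genes at 10 counts or more, and the primary DM libraries, with 3263 to 3890, were among those with few genes detected. Leaving out 1 library cannot separate DM from this difference in detection, whose part was not tested. *Gjc1* differed by −7.28 (SE 4.19, adjusted p = 0.351 by edgeR), and by −0.84 at the nearest to 0 when a library was left out. Its totals of 4637 and 8 counts gave a control to DM ratio of 770 (95% counting interval 390 to 1784), or 2.33 without primary control 1. That interval leaves out the spread between libraries. Groups did not overlap for *Gja1* and *Gjc1*, lower under DM in both, beside 10.3% of 9863 genes in either direction and 9.39% lower under DM. For *Gja1* the nearest libraries were 331 and 329 CPM. For *Gjc1* they were primary control 3 and primary DM 1, with 5 and 3 counts. With TMM-normalized values neither gene was free of overlap. Of 15 oocyte markers 2 (*Zp1* and *Zp2*) and of 10 detected granulosa markers 1 (*Inha*) were lower under DM without overlap, beside the same 9.39%. For *Zp1* the nearest libraries, primary control 3 and primary DM 3, had 8 counts each. The part of these markers' cells was not tested.

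**Figure D3:**
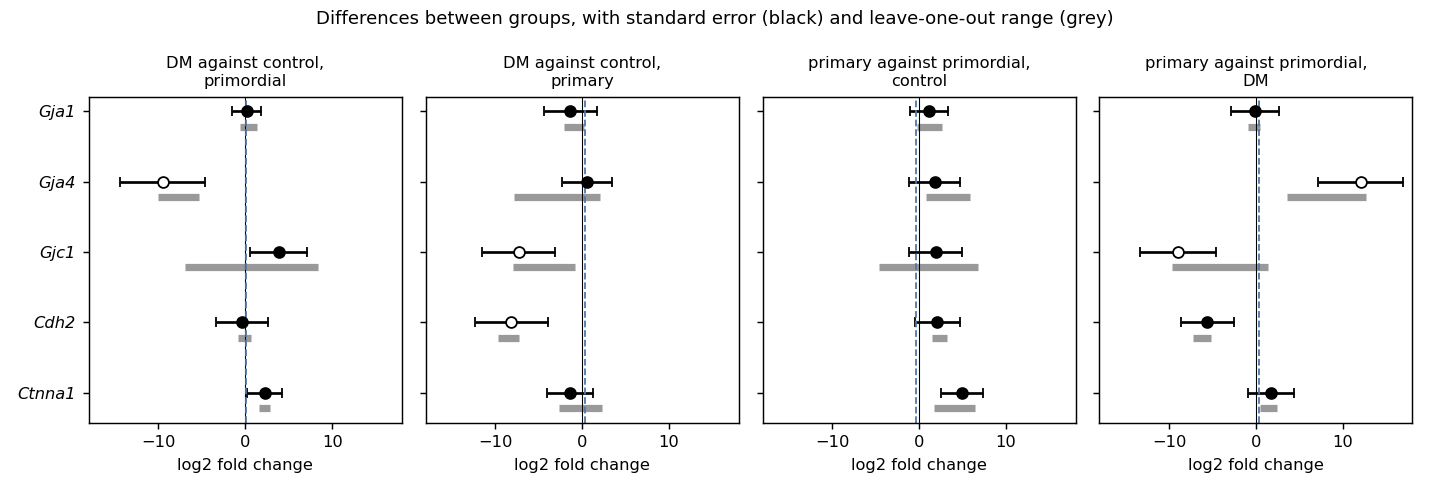
Log2 fold change of each gene but *Cdh1* in the 4 comparisons, with its standard error (black) and the range when each library is left out (grey); open circles are fits without the low-count filter and the dashed line is the median over all genes. The grey ranges of *Gjc1* cross 0 in 3 of the 4 comparisons, whereas that of *Cdh2* for DM in primary follicles stays between −9.64 and −7.26. The *Cdh2* groups in that comparison overlap.

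Between the stages in control ovaries, 5 of the genes were tested and all 5 had a higher fitted value in primary follicles, with none called by edgeR, as for 0.0% of 6726 genes. The median over these 5 was 1.95, beside −0.31 over all genes tested. *Ctnna1* had the largest difference, 4.95 (SE 2.38, unadjusted p = 0.0371, adjusted p = 0.749 by edgeR). It was 1.71 without primary control 3, the least when a library was left out. An unadjusted p under 0.05 was found for 6.44% of genes. The values were 2.12 (SE 2.62) for *Cdh2*, 1.95 (SE 3.05) for *Gjc1*, 1.79 (SE 2.95) for *Gja4* and 1.13 (SE 2.16) for *Gja1*. Without primary control 1 *Gjc1* became −4.63, and without primary control 3 *Gja1* became −0.18. The size of the values depended on the scaling. With library size alone *Ctnna1* was 2.73 and *Gja1* 0.02, and with DESeq2 size factors they were 7.91 and 3.36. None of the 5 had groups without overlap, beside 8.34% of 11602 genes and 7.4% lower in primary follicles. DESeq2 called 1.71% of 16296 genes and none of these, but it gave no adjusted p for *Gja1*, *Gjc1* and *Ctnna1*.

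Under DM the stages were compared on libraries that also served the comparisons with control. No gene of 4331 tested was called by edgeR (0.0%), against 17.2% at an unadjusted p under 0.05 and 6.48% of 14049 genes by DESeq2. None of them were among the 6, but DESeq2 gave no adjusted p for *Gja4* and *Gjc1*. *Cdh2* was lower in primary follicles in every library pair, by −5.57 (SE 3.09, adjusted p = 0.320 by edgeR), and was the 1 detected gene of 5 without overlap, beside 13.4% of 9983 genes and 12.3% lower in primary follicles. *Gja1* differed by −0.11 (SE 2.80, adjusted p = 0.988) and *Ctnna1* by 1.73 (SE 2.61, adjusted p = 0.730).

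The sparse connexins rested on single libraries. Neither passed the filter, and in the fit without it *Gja4* differed by 12.05 (SE 4.91, unadjusted p = 0.0141, adjusted p = 0.351 by edgeR) and *Gjc1* by −8.97 (SE 4.40, unadjusted p = 0.0412, adjusted p = 0.351 by edgeR). An unadjusted p under 0.05 was found there for 13.0% of genes. The *Gja4* ratio of primary to primordial was 1985 (95% counting interval 549 to 16400), or 3.03 without primary DM 1. The *Gjc1* ratio of primordial to primary was 1695 (95% counting interval 860 to 3926), or 1.11 without primordial DM 2. Both intervals leave out the spread between libraries.

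Whether the DM difference itself depended on the stage was tested over all 12 libraries. None of the 5 genes tested was called by edgeR (0.0% of 8500 genes). *Gja4* had an interaction of 10.42 (SE 4.71, unadjusted p = 0.0268, adjusted p = 0.215 by edgeR) and *Gjc1* of −11.06 (SE 4.81, unadjusted p = 0.0214, adjusted p = 0.200 by edgeR), where 18.9% of genes had an unadjusted p under 0.05. DESeq2 called *Gja4* (11.87, adjusted p = 0.0123), among 3.22% of 17728 genes. Leaving out single libraries moved the value of *Gja4* from 1.70 to 11.26 and that of *Gjc1* from −15.74 to −0.61. *Cdh2* had −7.57 (SE 4.38, adjusted p = 0.320), *Ctnna1* −3.38 (SE 3.04, adjusted p = 0.534) and *Gja1* −1.34 (SE 3.35, adjusted p = 0.854).

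The partners of these genes at the junction were followed by lists. Of 17 other connexins, 15 had no count in any library. *Gjb2* had 14 counts in primordial control 1 and none elsewhere, and *Gjb5* had 109 counts in primordial control 1 and 979 in primordial DM 2, the library that also held most *Gjc1*. *Panx1*, a pannexin channel gene, had 466, 259 and 467 counts in primordial control 1, primordial DM 2 and primary control 2 and at most 1 elsewhere. Of 21 other cadherins, 12 had no count.

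*Cdh11*, a cadherin of mesenchymal cells, had 223, 3 and 2 counts in primordial control and 1325, 9079 and 5575 in primordial DM. These groups did not overlap, and the log2 fold change was 7.75 (SE 3.64, unadjusted p = 0.0333, adjusted p = 0.658 by edgeR), a difference DESeq2 called. *Ctnnb1*, the beta-catenin that binds the cadherin tail and *Ctnna1*, gave 2.25 (SE 0.94, unadjusted p = 0.0167, adjusted p = 0.644 by edgeR) in primordial follicles and 4.62 (SE 2.79, adjusted p = 0.410 by edgeR) in primary follicles, where DESeq2 called it. *Ctnnd1*, a catenin that binds the cadherin tail near the membrane, had 246, 229 and 2.78 CPM in primordial control and 266, 1252 and 273 CPM in primordial DM. Its groups did not overlap, with 246 and 266 CPM the nearest, and the log2 fold change was 2.50 (SE 1.98, adjusted p = 0.760 by edgeR). Of 8 other catenins, 5 were tested for DM in primordial follicles, with 2 fitted values higher and 3 lower (median −1.27), and 3 in primary follicles, with 2 higher and 1 lower (median 3.95). Of 16 scaffold and nectin genes, 10 were tested in primordial follicles, with 3 higher and 7 lower (median −0.62), and 7 in primary follicles, with 4 higher and 3 lower (median 0.80). The medians over all genes tested were 0.13 and 0.31.

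No gene of these lists was called by edgeR in any comparison. DESeq2 called *Cdh3* and *Cdh11* for DM in primordial follicles, *Ctnnb1* for DM in primary follicles, *Cdh5* and *Ctnnal1* between stages in controls, *Afdn* between stages under DM, and *Cdh3* for the interaction. Among the genes with an unadjusted p under 0.05 by edgeR were *Cdh11* and *Ctnnb1* for DM in primordial follicles, *Ctnnal1* between stages in controls, *Nectin2* between stages under DM, and *Panx1* and *Cdh3* for the interaction. *Tjp1*, *Vcl*, *Afdn* and *Pkp4*, which tie junctions to the cytoskeleton, had at least 10 counts in all 12 libraries.

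**Figure D4:**
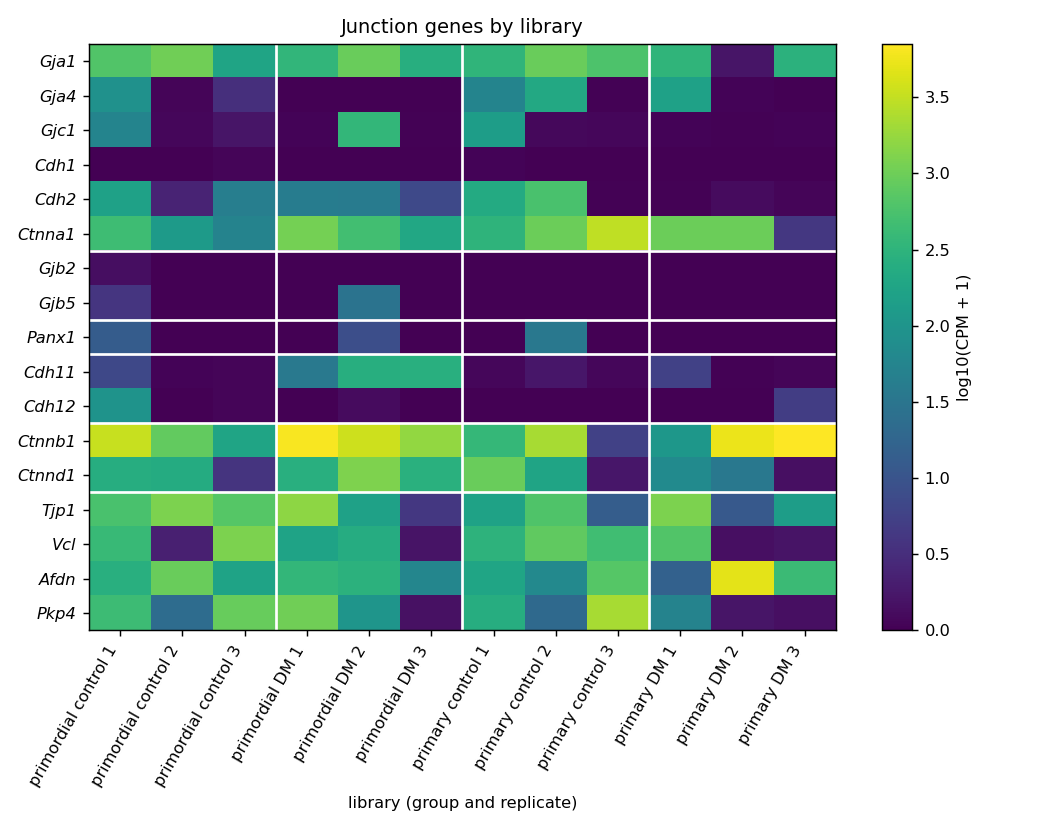
Level of the 6 genes (top block) and of other junction genes as log10(CPM + 1), one column for each library. *Gja1*, *Ctnna1*, *Tjp1* and *Afdn* are visible in most columns, and *Gja4*, *Gjc1* and *Panx1* in 3 to 5 of the 12 columns.

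Across the 12 libraries the genes did not rise and fall together closely. Pearson correlations of log2(CPM + 1) between pairs ranged from −0.064 (*Gja1* and *Ctnna1*) to 0.533 (*Gjc1* and *Cdh2*), over libraries that differ in depth and in genes detected. Each gene but *Cdh1* was compared with 4761 or 4762 genes, and the 2 with the highest correlation are given. The genes most like each were *Rpl28* (0.935) and *Eif4g1* (0.913) for *Gja1*, *Rps26-ps1* (0.983) and *Ccser2* (0.962) for *Gja4*, and *Txlna* (0.950) and *Traf3ip1* (0.941) for *Gjc1*. For *Cdh2* they were *Sap18* (0.969) and *Atp5g1* (0.948), and for *Ctnna1* *Prrc2a* (0.909) and *Ybx1* (0.843). Primary DM 2 had the fewest counts of any library for *Gja1*, *Rpl28* and *Eif4g1*. Primary DM 3 had the fewest for *Ctnna1*, *Prrc2a* and *Ybx1*. Correlations without these libraries were not computed, so the part of such single low libraries in the values was not tested. Ranking by Spearman correlation named other genes for every one.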

How the data were processed

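Oocytes of primordial and primary follicles from control and DM ovaries were sequenced, 3 libraries per group. Per the labels and the study's methods, the authors trimmed the reads, mapped them to mm10 (the methods name TopHat2, the submitters' processing notes STAR), used featureCounts for gene counts and deposited these as raw counts. For the library kit the sources name TruSeq RNA Access as well as Smart-seq II, and strand is not given in the sources used here. Symbols, positions (GRCm38) and exon lengths came from GENCODE, with 55141 of 55401 identifiers matched.

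Each comparison was fitted on its own libraries with edgeR 4.0.16 (filterByExpr, TMM, glmQLFit, glmQLFTest) in R 4.3.3, with Benjamini-Hochberg adjustment over all genes tested. The interaction used all 12 libraries. A gene removed by the filter is given from the same fit without it. CPM used total counts. Alternatives were DESeq2 1.42.0, other scalings, no filter, a replicate block and leaving out each library. The code was tested on simulated counts. The methods call the samples biologically independent, and p-values measure the spread between these pools. No libraries of a group were near-identical (chi-square divided by degrees of freedom 1588 or more), so each counted as 1 sample.

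The 6 genes and all lists were chosen with earlier results of these data known. Named besides the 6 are the 2 highest genes with counts of each junction list, those with at least 10 counts in 11 or more libraries, the 3 highest of each marker list, and the 2 genes most correlated with each member. Other genes are named because a count or call singled them out after their values were seen. No sequence is shown. Not every gene of the lists is reported here.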

Additional observations from a re-analysis of the deposited data

How the results depend on the processing

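Of 120 values of single genes under other settings, 109 kept their direction without a change of side at the threshold, 9 turned and 2 passed the threshold. The 109 include DESeq2 values without an adjusted p, for which only the direction was compared. Of 180 values with a library left out 16 turned. DESeq2 called 660 genes for DM in primordial follicles (main test 1), 571 in primary follicles, 278 between stages in controls, 911 between stages under DM and 571 for the interaction (main test 0 in each). It also called *Gja4*, at −8.21 in primordial follicles and 11.87 for the interaction. *Gjc1* had no adjusted p from DESeq2 in any comparison. *Gja4* had none for DM in primary follicles and between stages under DM, and *Gja1* and *Ctnna1* had none between stages in controls. The count of 1 became 0 with no filter, with DESeq2 size factors, with library size alone and with the replicate block, and the stage count in controls became 1 with library size alone. Leaving out a library gave 0 to 3 genes for DM in primordial follicles, 0 to 4 between stages under DM and 0 in the other comparisons.

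For DM in primordial follicles *Gja1* became −0.27 with library size alone and *Cdh2* 0.26 with DESeq2 size factors or DESeq2. For DM in primary follicles *Gja4* became −0.80 with library size alone. Between stages under DM *Gja1* became 1.12 with DESeq2 size factors or DESeq2. The cause was not tested. The median over all genes for DM in primary follicles was 0.31 with TMM, 2.12 with DESeq2 size factors and −0.96 with library size alone. With TMM-normalized CPM the highest library held 34.5% (*Gja1*), 63.9% (*Gja4*), 72.2% (*Gjc1*), 43.4% (*Cdh2*) and 59.2% (*Ctnna1*). On that scale, chosen after seeing the data, 2, 0, 1 and 2 members had groups without overlap in the 4 comparisons in the order of the text (*Gja4* and *Ctnna1*, none, *Ctnna1*, and *Gja4* and *Cdh2*).

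Replicate numbers were shared between groups, and correlations of same-numbered libraries, taken on deviations from group means, ran from −0.047 to 0.049. These values showed no pairing. They cannot exclude a shared animal or culture, since libraries of a group differed widely. With the replicate block no gene was called in any comparison, and *Gjc1* became −2.91 in primordial follicles, *Gja4* −1.97 and *Ctnna1* 1.08 in primary follicles.

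With a library left out, DM in primordial follicles gave −0.59 to 1.34 (*Gja1*), −6.89 to 8.42 (*Gjc1*) and −0.88 to 0.66 (*Cdh2*). In primary follicles it gave −2.12 to 0.26 (*Gja1*), −7.82 to 2.08 (*Gja4*) and −2.67 to 2.29 (*Ctnna1*). Between stages the ranges were −0.18 to 2.61 (*Gja1*) and −4.63 to 6.80 (*Gjc1*) in controls, and −0.93 to 0.51 (*Gja1*) and −9.65 to 1.36 (*Gjc1*) under DM. For the interaction they were −2.85 to 0.22 (*Gja1*) and −5.19 to 0.22 (*Ctnna1*).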

Other observations

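*Ctnnal1*, an alpha-catenin-like gene chosen here after its values were seen, was lower in primary than in primordial control oocytes by −8.65 on the log2 scale (SE 4.11, unadjusted p = 0.0351, adjusted p = 0.749 by edgeR). Its groups did not overlap, and DESeq2 called it. *Cdh12* had 3586 counts in primordial control 1 and 143 in primary DM 3, and at most 10 in the other 10 libraries.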
